A study of Caenorhabditis elegans with 2 samples.

Results

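The 59 genes described here are the protein-coding genes of Caenorhabditis elegans whose symbols begin with rab-, arf-, arl- or vps-, without rab-3, out of 19973 protein-coding genes on the nuclear chromosomes. They were 19 rab, 3 arf, 6 arl and 31 vps genes. Chromatin immunoprecipitation and sequencing (ChIP-seq) had mapped the binding of UNC-86, which controls neuronal identity through its POU domain, in 1 group with 2 biological replicates, and there was no second condition to compare. The animals were whole hermaphrodite L1 larvae of strain OP476, taken 6 hours post synchronization, which had used bleaching and starvation. Its genotype is unc-119(tm4063) on chromosome III with the transgene wgIs476, in which GFP is fused to the C terminus of UNC-86, and the precipitation used an antibody to GFP, per the labels. The labels also name a FLAG part of the tag, and no source used here names the promoter of the transgene. Peaks come from whole larvae, so the cells in which a site was bound cannot be told apart.

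Rab, Arf and Arl proteins are small GTPases that switch between a GTP-bound form on membranes and a GDP-bound form, and each marks particular compartments of the cell. Arf proteins recruit vesicle coats, Rab proteins recruit tethers and motors, and several Arl proteins act in cilia, the Golgi or lysosomes. Vps proteins take their name from yeast mutants that missort vacuolar proteins. They build the ESCRT complexes that bud vesicles into multivesicular bodies, the HOPS and CORVET tethers of endosomes and lysosomes, the retromer and GARP complexes of retrieval to the Golgi, and a phosphoinositide kinase complex. Most of these genes act in all cells. Neurons use them to sort receptors and to make synaptic and dense core vesicles. In C. elegans many such genes also sit close behind a neighbour in operons, from which 1 promoter serves several genes.

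A gene was given a promoter peak when a summit fell between 1500 bp before and 500 bp past any of its annotated 5' ends, on the ce11 build. The lists used were an optimal one, whose 2987 peaks had passed a reproducibility procedure of the authors, and a pooled one of 20768 peaks that also holds background. The signal is the authors' value for a peak. It serves to rank peaks within a list, and no source used here states how it was scaled. Library depth is unknown. Where a share carries a 95% interval, it is by the exact Clopper-Pearson method and covers the counting of genes or peaks only.

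The DNA at 7 of the member summits shows what the peaks cover. Each sequence runs 5' to 3' in the direction of the member gene, 75 bp either side of the summit (97 bp in all at vps-33.2, without 54 untranslated bases), and capitals mark the repeat GAGAGA, which reads TCTCTC on the other strand, and the element ATGCAT with or without the A before it, as in AATGCAT. Not every peak was eligible to be shown, and stronger ones at rab-18, rab-5, rab-10 and vps-51 are not. Among the eligible peaks the first 4 are the strongest of a family or of a compartment group, vps-60 has the strongest printed peak with GAGAGA, and rab-1 and vps-33.2 hold ATGCAT.
rab-14, chrX:15606999-15607149, minus strand: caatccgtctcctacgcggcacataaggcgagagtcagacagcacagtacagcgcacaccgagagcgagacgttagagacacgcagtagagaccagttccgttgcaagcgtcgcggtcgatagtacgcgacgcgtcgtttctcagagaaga
arf-6, chrIV:16946882-16947032, plus strand: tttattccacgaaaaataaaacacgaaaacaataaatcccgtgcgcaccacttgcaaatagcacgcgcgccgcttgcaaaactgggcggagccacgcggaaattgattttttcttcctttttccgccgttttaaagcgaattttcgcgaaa
vps-32.1, chrII:6588991-6589141, plus strand: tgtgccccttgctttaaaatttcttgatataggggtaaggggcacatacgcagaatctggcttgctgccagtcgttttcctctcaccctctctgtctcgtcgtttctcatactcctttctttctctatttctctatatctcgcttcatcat
arf-1, chrIII:5715634-5715784, plus strand: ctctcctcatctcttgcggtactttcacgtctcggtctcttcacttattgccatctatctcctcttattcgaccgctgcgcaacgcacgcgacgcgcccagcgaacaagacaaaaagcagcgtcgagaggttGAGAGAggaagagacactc
vps-60, chrV:8606410-8606560, minus strand: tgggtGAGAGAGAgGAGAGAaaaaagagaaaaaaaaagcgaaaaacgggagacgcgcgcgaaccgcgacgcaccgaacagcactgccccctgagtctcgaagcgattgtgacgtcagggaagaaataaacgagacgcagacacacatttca
rab-1, chrV:1264463-1264613, minus strand: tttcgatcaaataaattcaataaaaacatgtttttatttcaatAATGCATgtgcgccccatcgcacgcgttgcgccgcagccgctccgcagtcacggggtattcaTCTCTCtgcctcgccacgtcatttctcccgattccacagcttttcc
vps-33.2, chrII:6601119-6601215, plus strand, before its annotated start: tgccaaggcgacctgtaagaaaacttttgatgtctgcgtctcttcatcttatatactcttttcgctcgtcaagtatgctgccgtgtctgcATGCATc
The strongest, at vps-32.1, has several runs of C and T without a full TCTCTC, while the window of vps-60 holds GA repeats near its start. The bases are those of the RefSeq copy of the WBcel235 assembly. The only AATGCAT, an element known to be bound by UNC-86 with the LIM homeodomain protein MEC-3, lay at rab-1, which had the weakest optimal peak of all members.

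An optimal peak lay at the promoters of 22 of the 59 genes (37.3%, 95% interval 25 to 50.9), while 13.1% of all protein-coding genes had one. The replicates taken alone, each with its 2987 strongest peaks, gave 21 genes in replicate 1 and 23 in replicate 2, a mean of 37.3% ± 2.40 (SD, n = 2), beside 12.8% and 13.2% of all protein-coding genes. No set test was made, so the higher share is a description of these genes. In the pooled list 44 of 59 had a promoter peak (74.6%), beside 41.8% of all genes, and 15 had none in either list.

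Shares by family had wide intervals, and are set beside the 13.1% of all protein-coding genes with an optimal peak. The rab genes had 7 of 19 (36.8%, 95% interval 16.3 to 61.6) and the vps genes 13 of 31 (41.9%, 24.5 to 60.9). The arf genes had 2 of 3 (66.7%, 9.43 to 99.2), and none of the 6 arl genes had an optimal peak (0 to 45.9). The arf and arl intervals both hold 13.1%. The pooled list held a peak for 13 rab, 3 arf, 4 arl and 24 vps genes (68.4%, 100%, 66.7% and 77.4%, beside 41.8% of all genes). All of these family intervals in the optimal list overlap each other.

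**Figure D1:**
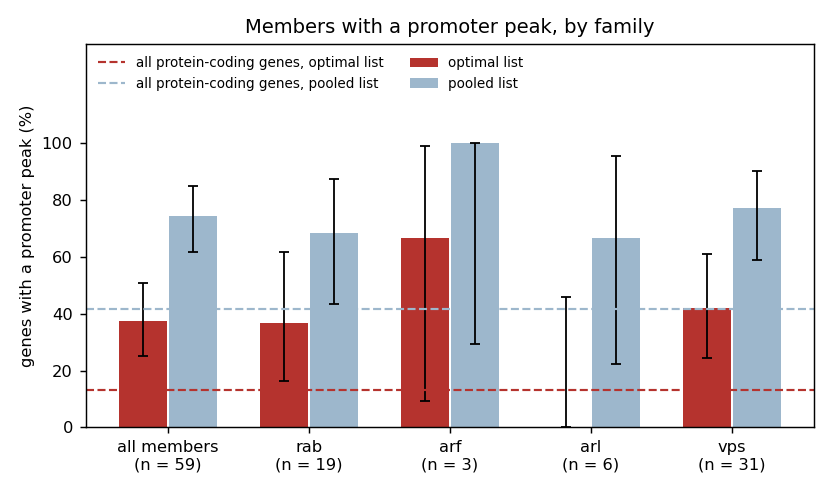
Share of genes with a promoter peak (vertical axis, %) in the optimal list and in the pooled list, for all 59 members and each family; error bars are exact 95% binomial intervals and dashed lines give the share of all protein-coding genes (13.1% and 41.8%). The rab and vps bars of the optimal list stand at 36.8% and 41.9%, and the arl bar is at 0.

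Signals at the members covered a broad range. The strongest promoter peak of each of the 22 genes had a median signal of 226.9, from 68.4 at rab-1 to 488.7 at vps-32.1, while the median over all 2612 protein-coding genes with an optimal promoter peak was 146.9. The members' median depended on the settings. It was 207.5 with each summit counted for the nearest 5' end only and 185.9 with the 3637 strongest pooled peaks. With optimal peaks above the median signal it was 346.6, and the difference from all genes was not tested. Among the 22, 15 lay above 127, the median of the whole optimal list, as did 59.0% of all genes with a promoter peak. Medians were 228.2 for rab (n = 7), 121.9 for arf (n = 2) and 227.6 for vps (n = 13). Of the 300 strongest optimal peaks, some lay at 7 of these genes: vps-32.1, rab-18, rab-14, rab-7, vps-25, vps-4 and vps-51. The share of all protein-coding genes with such a peak was not computed, so the 7 are a count only.

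**Figure D2:**
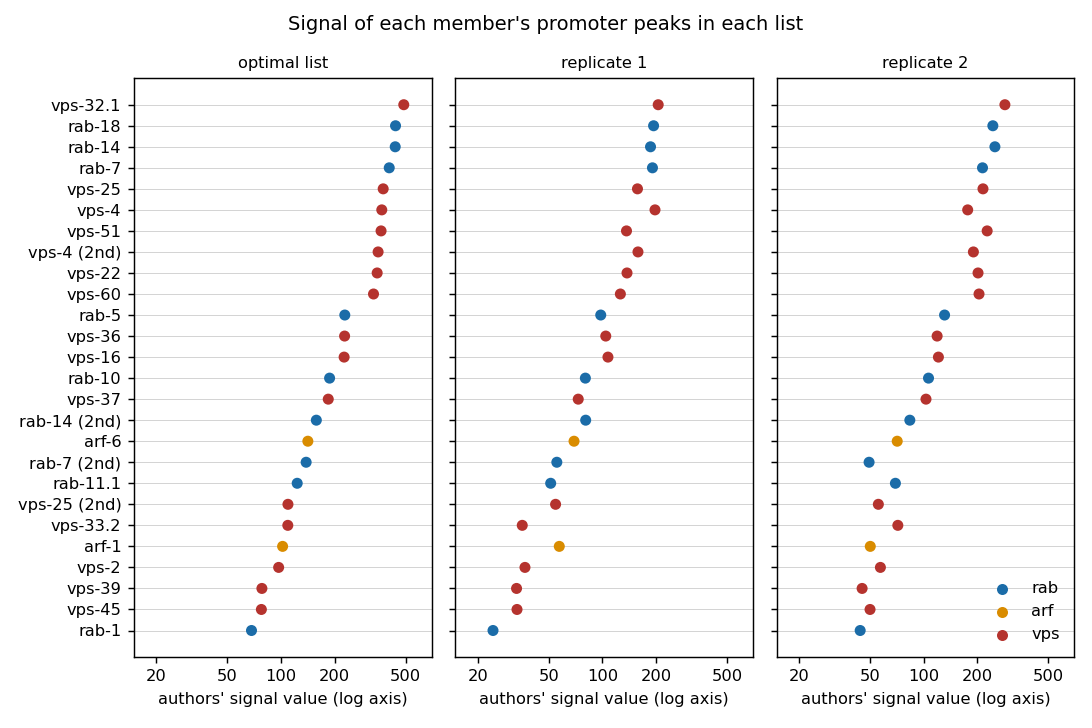
The authors' signal value (horizontal log axes) of the 26 optimal peaks in the promoter windows of 22 members, in the optimal list and at the overlapping peak of each replicate's list; colours give the family and "2nd" marks the weaker peak of a gene with 2. The order of the peaks is much alike in the replicates, and rab-1 is lowest in all 3 panels.

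Among the Rab genes, the strongest peaks were at rab-18, rab-14 and rab-7. At rab-18, whose mammalian counterpart acts at the endoplasmic reticulum and lipid droplets, the peak (chrIII:1080644-1080875) had its summit 25 bp downstream of a 5' end, with a signal of 439.4 in the optimal list, 193.8 in replicate 1 and 244 in replicate 2. The peak at rab-14, which acts in the maturation of phagosomes, had 437.6, 186.3 and 250.6, with its summit 439 bp upstream. The peak at rab-7 (chrII:11967608-11967845), the GTPase of late endosomes and lysosomes, had 405.1, 191 and 213.5, and its summit lay 790 bp upstream. All 3 ranked between 184 and 262 in each replicate. Weaker second peaks lay 1103 bp upstream of rab-14 (158) and 990 bp upstream of rab-7 (138.5), and the pair at rab-7 overlap each other.

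The Rab genes of early and recycling endosomes followed. At rab-5, which directs fusion of early endosomes, the signal was 228.2, with 97.9 in replicate 1 and 130.8 in replicate 2. It was 187.5 at rab-10, which acts in recycling to the plasma membrane (80.3 and 106.3 in the replicates), and 123.4 at rab-11.1, the GTPase of recycling endosomes (51.3 and 69.3). These 3 genes lie on chromosome I, and their summits were 700, 1194 and 698 bp upstream. The last, rab-1, which serves traffic from the endoplasmic reticulum to the Golgi, had 68.4, with 24.4 in replicate 1 and 44.0 in replicate 2, and its peak ranked 3929 and 2575 there. It was thus outside the 2987 strongest of replicate 1, and without replicate 2 the rab count was 6. Just below the lowest optimal signal, 66.4, came rab-19 with 62.0 in the pooled list, which was among the 2987 strongest of replicate 2 (rank 2759) but not of replicate 1 (rank 4603).

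Of the other Rab genes, 5 more had pooled peaks with low signals. They were rab-8, which acts in transport to the plasma membrane (40.2), rab-6.1 of the Golgi (34.2), rab-30 (31.6), rab-39 (31.0) and rab-37 (22.2). No pooled promoter peak was found at rab-6.2, rab-11.2, rab-21, rab-28, rab-33 or rab-35. The numbered copies thus differed in the lists: rab-11.1 had an optimal peak and rab-11.2 no pooled one, while rab-6.1 had a weak pooled peak and rab-6.2 none.

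Both Arf genes with an optimal peak had modest signals. At arf-6, the Arf of the plasma membrane and of endocytic recycling, the signal was 141.6, with 69.4 in replicate 1 and 71.0 in replicate 2, and the summit lay 163 bp upstream. At arf-1, which recruits the COPI coat to the Golgi, it was 102.2, with 57.3 and 50.1, and the summit lay in an intron of the gene, 406 bp upstream of its internal 5' end. With the outermost 5' end alone, arf-1 had no promoter peak and the arf count was 1. The third, arf-5, had 58.4 in the pooled list, with its summit 312 bp upstream.

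The arl genes had the weakest peaks. Their strongest was at arl-8, which moves lysosomes and the precursors of synaptic vesicles along axons, with 30.3 in the pooled list, 13.0 in replicate 1 and 14.5 in replicate 2. Next came arl-5 (29.1), arl-13 (27.5) and arl-3 (21.7), the latter pair known from cilia. At arl-1 of the Golgi and arl-6, a GTPase of the ciliary BBSome, no peak was listed. The pooled peaks at these genes ranked between 7888 and 15607 of 20768, deep in the part of the list that includes background. Their median distance was 994.5 bp upstream (n = 4).

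The ESCRT genes were counted by symbol. Of 11 with vps symbols, 8 had an optimal peak (72.7%, 95% interval 39 to 94.0, beside 13.1% of all genes) and the other 3 had pooled peaks. Of 6 ESCRT genes under other names 1 had an optimal peak (16.7%, 95% interval 0.421 to 64.1). The intervals overlap, and the difference was not tested. Each replicate alone also gave 8. Counting each summit for the nearest 5' end only gave 6 (54.5%), beside 9.02% of all genes, since vps-22 and vps-32.1 were then lost to neighbours. Dividing the vps genes into complexes was a choice made after the values were seen. All 3 ESCRT-II genes had an optimal peak: vps-25 (374.6), vps-22 (346.6) and vps-36 (227.6). In replicate 1 the latter pair had 137.5 and 104.5, and in replicate 2 they had 201.5 and 118.8. All of them were well inside the 2987 strongest peaks of each replicate. Of the 2 ESCRT-I genes with vps symbols, vps-37 had one (184.3, with 73.2 in replicate 1 and 102.9 in replicate 2) and vps-28 only a pooled one (43.1).

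The genes of ESCRT-III, whose polymer cuts the membrane neck, and its ATPase included the strongest member peak. At vps-32.1, which encodes the main polymer subunit, the signal was 488.7, with 205.7 in replicate 1 and 285.1 in replicate 2, and ranked 160 of the optimal list. At vps-4, the ATPase that takes the polymer apart, 2 peaks (chrI:1068125-1068437 and chrI:1067055-1067247) lay 1353 bp and 258 bp upstream, with 367.9 and 350.8. In replicate 1 they had 197.4 and 158.4, and in replicate 2 they had 176.3 and 189.8, so the order of the pair was not the same in the replicates. The peak at vps-60 had 330.6, with 126.2 and 204.1, and that at vps-2 had 97.1, with 36.8 and 57.1. At vps-20 and vps-24 the pooled list held peaks of 58.8 and 49.2, both within 36 bp of a 5' end.

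The gene of vps-25 held a pair of peaks at separate starts. Its stronger peak (157.4 in replicate 1 and 214.8 in replicate 2) had its summit 2 bp upstream of an internal 5' end, in an intron of the longer transcript. The weaker one (109.5, with 54.7 and 55.6) lay 5 bp downstream of the outer 5' end, which faces uba-2, the gene of a ubiquitin-like activating enzyme subunit, 318 bp away.

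Of 8 genes of the HOPS and CORVET tethers, 3 had an optimal peak (37.5%, beside 37.3% of all members and 13.1% of all genes): vps-16 (226.2), vps-33.2 (109.3) and vps-39 (78.2). Their peaks had 107.5, 35.5 and 33.02 in replicate 1 and 120.8, 71.5 and 45.1 in replicate 2, so vps-33.2 differed most between the replicates. In the pooled list vps-33.1, the other copy of vps-33, had 55.3, and vps-41 (30.9), vps-8 (24.0) and vps-18 (23.7) were lower, while vps-11 had none. Of 5 genes of the GARP and EARP tethers, vps-51 had a strong peak, with 364.5 in the optimal list, 136.6 in replicate 1 and 226.7 in replicate 2. The others were at 50.4 (vps-50, which acts in the maturation of dense core vesicles) and 29.9 (vps-52) in the pooled list, and vps-53 and vps-54 had none.

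None of the 3 retromer genes had an optimal peak (95% interval 0 to 70.8), nor did either kinase gene (0 to 84.2), and both intervals hold the 13.1% of all genes. At the retromer genes, vps-29 had 28.8 in the pooled list, and vps-26 and vps-35 had no pooled promoter peak. There was also no pooled promoter peak at vps-15 or vps-34 of the phosphoinositide kinase. The peak at vps-45, a regulator of endosomal SNAREs, had 77.7, with 33.21 in replicate 1 and 49.95 in replicate 2, and its summit was 44 bp upstream. At vps-13, a lipid transport protein, the pooled list held 30.4 and replicate 2 had no promoter peak.

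**Figure D3:**
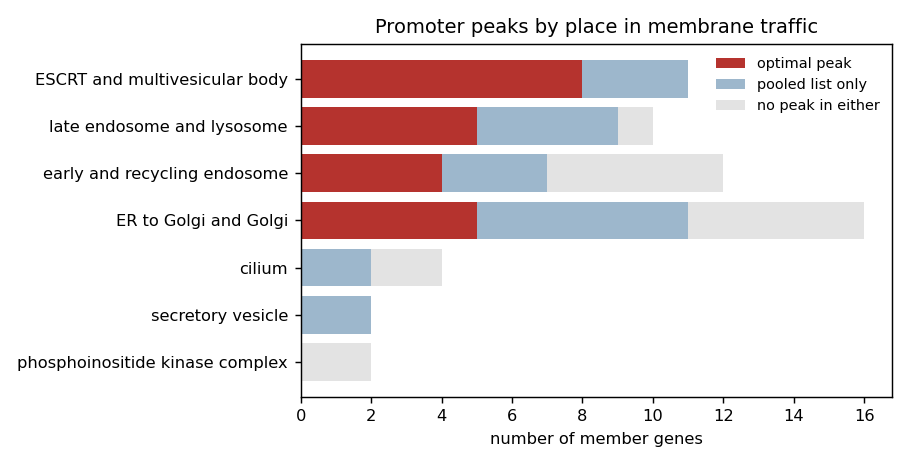
Number of member genes (horizontal axis) in each of 7 compartment groups, divided into genes with an optimal promoter peak, genes with a promoter peak in the pooled list only and genes with neither; arf-5 and vps-13 had no group. The ESCRT group has 8 of 11 genes with an optimal peak and none without a pooled peak.

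By compartment, late endosome and lysosome genes had 5 of 10 with an optimal peak (95% interval 18.7 to 81.3), beside 13.1% of all protein-coding genes. Early and recycling endosome genes had 4 of 12 (33.3%, 9.92 to 65.1) and genes of the endoplasmic reticulum and Golgi 5 of 16 (31.2%). The early endosome and Golgi intervals hold 13.1%, while the late endosome interval lies above it. Each gene was placed in a single group, and vps-45, a regulator of endosomal SNAREs, was counted with the Golgi genes. None of 4 cilium genes or 2 secretory vesicle genes had one (95% intervals 0 to 60.2 and 0 to 84.2). Both intervals hold the 13.1% of all protein-coding genes and also the 37.3% of all members. Median signals of the genes with an optimal peak were 338.6 in the ESCRT group (n = 8), 226.2 in the late endosome group (n = 5), 164.6 in the early endosome group (n = 4) and 102.2 in the Golgi group (n = 5). The intervals on these shares overlap.

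Summits lay upstream of the members' 5' ends. For 21 of 22 genes the strongest summit was upstream (95.5%, beside 95.1% of all genes with a promoter peak), with rab-18 the exception. The median was 478 bp upstream, from 1353 bp upstream to 25 bp downstream, while the median over all such genes was 268 bp upstream. This median depended on the settings. It moved under all 8 alternatives, to -307.5 bp (negative upstream) with each summit counted for the nearest 5' end only and to -628 bp with peaks above the median signal, and the difference from all genes was not tested. By family the median was 698 bp upstream for rab, 284.5 for arf and 357 for vps. Within 200 bp of the 5' end lay 6 of 22 (27.3%, beside 37.1%), and more than 1000 bp upstream lay 4 (18.2%, beside 14.9%), at vps-4, vps-16, rab-10 and vps-36. Just outside the window were optimal summits 1533 bp upstream of rab-33 (183.0), 1617 bp upstream of arl-13 (83.9), 1796 bp upstream of vps-29 (73.5) and 1878 bp upstream of rab-19 (180.2). Those nearest its inner edge were at vps-4 (1353 bp) and vps-16 (1284 bp).

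**Figure D4:**
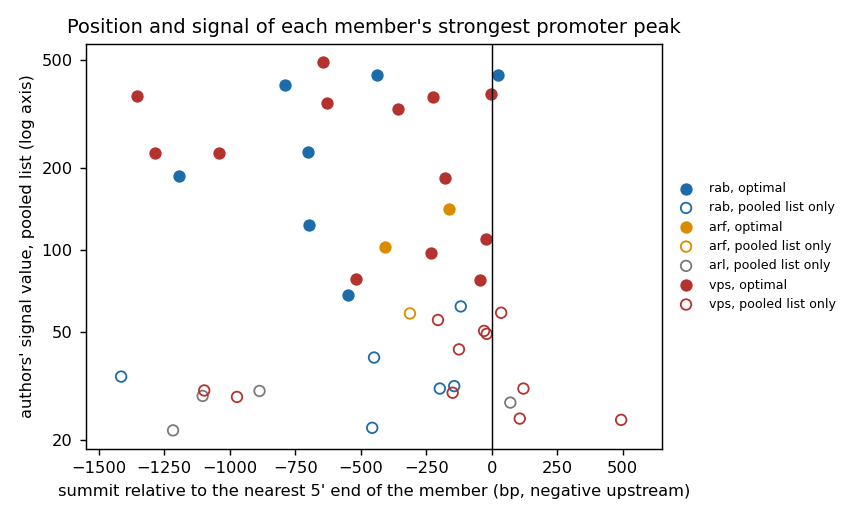
Position of the summit of each member's strongest promoter peak in the pooled list, relative to the nearest 5' end of the gene (horizontal axis, bp, negative upstream), against the authors' signal (vertical log axis); filled points are also in the optimal list. Filled points spread from 1353 bp upstream to 25 bp downstream, and the grey arl points lie at or below 30.3.

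Most of these peaks were shared with a neighbour. The 22 genes held 26 separate peaks, of which 21 also lay in the window of another protein-coding gene and 5 in the member's window only, at arf-1, vps-36, vps-33.2, vps-39 and vps-45. Of all 1941 optimal peaks in a coding gene's window, 38.3% lay in the windows of 2 or more. That share counts each peak once. Choosing peaks through a gene's window, as for the 26, favours those in several windows, so these shares are not like for like. The nearest 5' end belonged to the member at 15 of 26 peaks, and at 4 peaks the member and the other gene were within 30 bp of equal distance. At 19 of 26 the nearest other gene lay on the opposite strand. These counts by nearest 5' end are not set beside all optimal peaks, so they describe the 26 only.

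Some neighbours were genes of other well-known functions. The peak of vps-51 lay 223 bp from it and 195 bp from lin-35, the worm Rb gene. That of rab-11.1 was 283 bp upstream of rpl-7, a ribosomal protein gene, and that of vps-32.1 was 411 bp upstream of icd-1, which encodes a subunit of the nascent polypeptide-associated complex. The stronger peak at vps-4 lay 232 bp upstream of gsa-1, a G protein alpha subunit, and the weaker was the one nearest vps-4 itself. At vps-16 the summit was 157 bp upstream of mrps-17, a mitochondrial ribosomal protein gene. At rab-10 it lay about midway to the kinetochore gene knl-2, 1194 bp from the former and 1205 bp from the latter. With each summit counted for the nearest 5' end only, 14 of 59 members had an optimal peak (23.7%, beside 9.02% of all genes): 4 rab, 1 arf, no arl and 9 vps genes. The 8 that dropped out were arf-6, rab-1, rab-7, rab-11.1, vps-16, vps-22, vps-32.1 and vps-51.

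**Figure D5:**
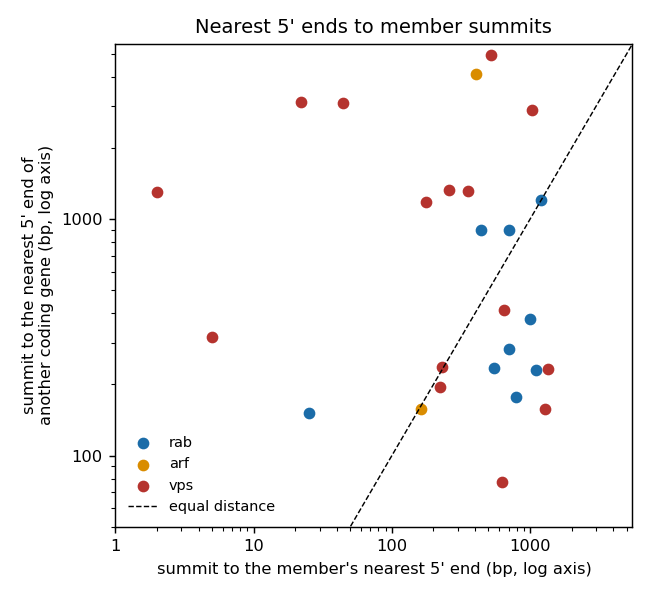
Distance from the summit of each of the 26 member peaks to the nearest 5' end of the member (horizontal log axis, bp) and of any other protein-coding gene (vertical log axis, bp); the dashed line marks equal distance. The 15 points above the line are nearer to the member and the 11 below it nearer to the neighbour.

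Members with a peak had upstream neighbours much like those of other genes with a peak. Of the 22, 14 (63.6%) had a divergent upstream neighbour, beside 60.9% of all protein-coding genes with an optimal promoter peak, while of the 37 without, 10 did (27%). Conversely 16 of the 37 (43.2%) had a gene on the same strand ending less than 500 bp upstream, an arrangement typical of operons. Of all protein-coding genes, with or without a peak, 42.2% had a divergent neighbour and 17.7% such a close tandem one. Among the 22, the close tandem count was 2 (9.09%, beside 13.8% of all genes with a peak), arf-1 and vps-16. Seen the other way, 14 of 24 members with a divergent neighbour had a peak (58.3%, 95% interval 36.6 to 77.9, beside 18.9% of all such genes), and 2 of 18 with a close tandem neighbour (95% interval 1.38 to 34.7, beside 10.2% of all such genes). The 3 retromer genes all had a tandem neighbour, ending 173 bp upstream of vps-26, 88 bp upstream of vps-29 and 190 bp upstream of vps-35, and the part of this arrangement in their lack of peaks was not tested.

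The replicates ranked the member peaks alike. All 26 had an overlapping peak in both replicate lists, of which 25 were among the 2987 strongest of replicate 1 and 26 of replicate 2. Spearman's rho between the replicates' signals was 0.923 over the 26 peaks, which share the same libraries and were chosen with these replicates, so no p was computed. The ratio of replicate 2 to replicate 1 had a median of 1.34, from 0.874 at arf-1 to 2.01 at vps-33.2.

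Sequence at the member summits was close to that of other optimal peaks. GAGAGA, searched on either strand within 75 bp of the summit, lay at 7 of 26 (26.9%, 95% interval 11.6 to 47.8), beside 36.3% of all 2987 summits, and in 4 of 52 windows 500 bp away on either side (7.69%, beside 7.5%). The 7 were at arf-1, rab-10, the weaker rab-14 peak, rab-1, vps-25, vps-60 and vps-45. AATGCAT lay at 1 of 26 (3.85%, beside 3.05%), at rab-1, and ATGCAT, which AATGCAT contains, at 2 (7.69%, beside 5.16%), at rab-1 and vps-33.2. The POU octamer ATGCAAAT lay at 1 summit, that of vps-2, as did the E box CACGTG at rab-7 and the homeodomain core TAATTA at vps-16 (3.85% each, beside 1.24%, 4.55% and 4.52% of all summits). The median share of G and C bases was 46.4% at members, from 29.8% at vps-2 to 58.3% at vps-4, beside 45% at all optimal summits. Of the 26 summits, 21 lay outside protein-coding genes, 3 in introns, 2 in 5' untranslated exons and none in a coding exon.

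Other genes of membrane traffic had a similar share. Of 75 listed genes of coats, tethers, SNAREs and regulators, 73 matched the annotation and 28 had an optimal promoter peak (38.4%, beside 37.3% of the members and 13.1% of all genes). Median signal at the 28 was 116.8, lower than 226.9 at the members and 146.9 over all genes with an optimal promoter peak. The exocyst, which tethers secretory vesicles at the plasma membrane, had 5 of 8, led by sec-15 (413.9) and sec-6 (289.2). The COPI coat had 4 of 7 (57.1%, 18.4 to 90.1), led by copz-1 (221.1) and copg-1 (127.7). The COPII coat also had 4 of 7 (57.1%, 18.4 to 90.1), led by sar-1 (324.4) and sec-24.1 (317.8). Of 20 genes listed as SNAREs and their partners, 8 had one (40.0%, 19.1 to 63.9), led by syx-5 (458.4) and vti-1 (411.9). The list held bet-1, which in C. elegans names a bromodomain protein, and without it 27 of 72 listed genes had a peak (37.5%).

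Rab regulators had 2 of 11 (18.2%, 95% interval 2.28 to 51.8), at ccz-1 (286.3), part of the exchange factor for Rab7, and tbc-8 (70.7), and Arf regulators 2 of 7 (28.6%, 3.67 to 71.0), at grp-1 (77.1) and agef-1 (68.2). Both intervals hold the 13.1% of all genes and the 38.4% of the whole list. Endosomal sorting genes had 2 of 7 (28.6%, 3.67 to 71.0, which also holds 13.1%), at rme-1 (99.2) and snx-1 (66.8). Of 6 ESCRT genes under other names, tsg-101 alone had an optimal peak (89.3), and did-2 had 37.3 in the pooled list. The other 4 had no pooled promoter peak.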

How the data were processed

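UNC-86 ChIP-seq peak lists of 2 biological replicates were used on the ce11 build. Per the deposited listing, the authors called peaks for each replicate against a control and on both together, and chose the optimal list with the irreproducible discovery rate (IDR). No source used here names the aligner or peak caller. The signal is the deposited value in column 7 of each list. The optimal list held 2987 peaks, the pooled list 20768, and those of replicates 1 and 2 held 29587 and 25172. No read counts were used and depth is unknown. 5' ends came from the Ensembl annotation of WBcel235, release 115, the assembly behind ce11, and sequence from the RefSeq copy of that assembly. One summit could count for several genes. Scripts ran in Python 3.11.15 with scipy 1.17.1, pandas 2.3.3, matplotlib 3.10.9 and numpy 2.4.6, and the assignment was tested on simulated peaks. Every member with an optimal promoter peak is named, with up to 2 genes per group of the wider list. Members, lists and settings were chosen with earlier results of these data known, and no set test was made. The ce10 lists were not used, other than the length of the optimal one (3637 peaks).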

Additional observations from a re-analysis of the deposited data

How the results depend on the processing

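Over the settings tried, 20 of 77 values moved. A count was called moved only on a large relative change, and a median when it shifted by more than its SD between the replicates. Smaller changes in counts were thus not called moved. One was the fall from 22 to 15 members (25.4%, beside 7.71% of all genes) with optimal peaks above the median signal. Counting each summit for the nearest 5' end only gave 14 members, 4 rab genes and 1 arf gene (23.7%, 21.1% and 33.3%). The share of all genes was then 9.02%, where it was 13.1% beside the main count of 22 members (37.3%). The arf count was also 1 with outermost 5' ends and with optimal peaks above the median signal (33.3% each, beside 12.3% and 7.71% of all genes). Letting a peak's edge count in place of its summit gave 1 arl gene, arl-13 (16.7%, beside 13.8%). Leaving out a replicate gave 21 to 23 members. No paired analysis was possible because there was 1 group. Depth is unknown, families of 3 and 6 genes allow wide ranges, and a summit between divergent genes cannot be given to either. Leaving bet-1 out of the wider list was chosen after seeing the data. With the nearest 5' end 18 genes of that list had a peak (24.7%, beside 9.02% of all genes). With peaks above the median signal 14 did (19.2%, beside 7.71%), against 28 in the main count (38.4%, beside 13.1%).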

Other observations

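By chromosome, members with an optimal promoter peak were most frequent on chromosome V, with 5 of 6 (rab-1, vps-36, vps-37, vps-39 and vps-60, all but vps-54), although 8.45% of all protein-coding genes there had one. On chromosome I it was 6 of 13, beside 19.2%, on III 4 of 14, beside 19.3%, on II 4 of 13, beside 11.7%, on X 2 of 6, beside 11.5%, and on IV 1 of 7, beside 12.5%. These counts are small and were looked at after the values were seen.

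Several members without an optimal promoter peak lay far from any optimal peak. The nearest optimal summit was 45280 bp from vps-13, 44426 bp from vps-26 and 39942 bp from rab-39. At vps-53 a strong peak (764.1) lay 8108 bp upstream, outside its window.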
